A study of Homo sapiens with 17 samples.

Results

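Processed pseudogenes of ribosomal protein genes are copies of ribosomal protein mRNAs that were reverse transcribed and put back into the genome. They were taken from the deposited table by annotation alone. A gene was a member when its biotype was processed pseudogene or transcribed processed pseudogene and its name joined the symbol of an RPL or RPS gene to a P and a number, as in RPS2P5. This gave 220 members of the 18869 genes, 202 processed and 18 transcribed processed pseudogenes. Of these, 118 were named after RPL genes (large subunit) and 102 after RPS genes (small subunit), and the part of the name before the P gave 60 parent genes. RPL7L1, named for its likeness to RPL7, was the 1 parent outside the list of ribosomal protein genes used below. The table held 987 processed pseudogenes in all, and the other 767 served for comparison, as did 79 of the 80 ribosomal protein genes listed.

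The cells were HEK293T, a cell line that was made from human embryonic kidney, and they carried a stably integrated lentiviral construct. In RPS2-STAMP the construct encodes RPS2, a protein of the small ribosomal subunit, fused to APOBEC1, an enzyme that turns C into U in RNA, and in Control-STAMP it encodes APOBEC1 alone. Expression was switched on with 50 ng/ml doxycycline for 24 h, crosslinking was done in 0.1% formaldehyde, and RNA depleted of ribosomal RNA was sequenced from the Input and from RNA immunoprecipitations (RIP) of PABPN and PABPC. RNA edited in RPS2-STAMP has been close to a ribosome, PABPN is the mainly nuclear poly(A)-binding protein and PABPC the mainly cytoplasmic one, so the study asked how far the RNAs held by each protein are in contact with ribosomes. There were 17 samples: 3 of RPS2-STAMP for each of the Input, the PABPN RIP and the PABPC RIP, 3 of Control-STAMP for each of the Input and the PABPN RIP, and 2 of Control-STAMP for the PABPC RIP. All 17 received the same doxycycline and crosslinking. The study's text states that the RIPs were made from the cytoplasmic part of fractionated cells and calls the Input cytoplasmic too, and the labels state no fractionation. Since the construct of RPS2-STAMP carries the RPS2 coding sequence, reads of the construct, of RPS2 mRNA and of close RPS2 copies cannot be told apart where their sequence is the same.

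The table gives 1 normalized EPKM per gene and fraction, which is the number of edits scaled by transcript length and sequencing depth after the authors subtracted editing in the control, and 1 average TPM (a transcript's share of all transcripts, hence a level per length) per gene and fraction. As described, the EPKM is not divided by the TPM. Both are pooled over samples and no counts are given. The study's text states the reads per library, but the number of reads behind a value is unknown. No SD or n accompanies a value, and no difference between fractions or gene groups below has a replicate check or a test. An EPKM of 0 can stand for no edits or for editing no higher than in the control, and no EPKM was below 0. The label was checked against genes that HEK293T cells are known to express and markers of other tissues. VIM, KRT8, KRT18, NEFL, NEFM and PAX2 were listed, whereas the blood, liver and heart markers PTPRC, CD3E, HBB, ALB and MYH7 were not among the genes of the table. MALAT1, a nuclear noncoding RNA, had a TPM of 55.0 in the Input, 10.3 in the PABPC RIP and 208 in the PABPN RIP.

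Ribosomal protein mRNAs are short, abundant and strongly translated, and they start with a run of pyrimidines that ties their translation to growth signals. A processed pseudogene lacks the introns of its parent, usually lacks its promoter, and often ends in a run of A that was the poly(A) tail of the copied mRNA. Most carry substitutions, frameshifts or stop codons, and where a copy is transcribed its RNA can be nearly identical to the parent mRNA, so short reads of copy and parent can be hard to assign.

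The following coding stretches are shown because they set out how much, or how little, separates a copy from its parent. Each member is given 5′ to 3′ on its own strand of hg38, above the matching stretch of the parent's coding sequence, and capitals mark the bases that differ. The RPL21P16 stretch (chr10:120355084-120355183, minus strand) is the same as bases 1 to 100 of RPL21. The RPL32P18 stretch (chr7:44467919-44468018, plus strand) matches bases 23 to 122 of RPL32 with 3 differences, and the RPS18P9 stretch (chr6:149594227-149594326, plus strand) matches bases 143 to 242 of RPS18 with 6. RPL41P1 (chr20:21755270-21755350, plus strand) is shown whole above the RPL41 coding sequence, which it holds without a difference.
RPL21P16: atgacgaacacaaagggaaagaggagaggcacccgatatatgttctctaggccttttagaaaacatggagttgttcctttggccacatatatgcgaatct
RPL21: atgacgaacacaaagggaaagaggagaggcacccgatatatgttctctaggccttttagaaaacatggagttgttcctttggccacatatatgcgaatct
RPL32P18: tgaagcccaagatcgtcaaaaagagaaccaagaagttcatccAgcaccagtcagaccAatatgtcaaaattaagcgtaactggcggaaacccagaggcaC
RPL32: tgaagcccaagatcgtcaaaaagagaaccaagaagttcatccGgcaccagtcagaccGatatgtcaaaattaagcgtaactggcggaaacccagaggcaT
RPS18P9: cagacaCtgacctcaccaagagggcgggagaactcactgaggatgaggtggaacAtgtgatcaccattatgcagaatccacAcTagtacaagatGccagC
RPS18: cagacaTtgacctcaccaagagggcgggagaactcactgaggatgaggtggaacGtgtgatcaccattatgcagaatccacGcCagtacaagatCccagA
RPL41P1: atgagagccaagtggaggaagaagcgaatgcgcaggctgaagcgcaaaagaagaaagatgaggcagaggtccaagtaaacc
RPL41: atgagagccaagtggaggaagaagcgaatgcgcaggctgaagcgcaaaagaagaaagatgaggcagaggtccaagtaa

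With the parent's base first and positions counted from the A of the parent's start codon, the RPL32P18 differences were G65A, G80A and T122C, and those of RPS18P9 were T149C, G197A, G224A, C226T, C237G and A242C. C226T turns a CAG codon of RPS18 into TAG, a stop codon, in RPS18P9. A read of 100 bases, the length sequenced, from the RPL21P16 stretch could have come from either gene, whereas the stretches of RPL32P18 and RPS18P9, picked as those with the most differences from the parent, differ at several places in 1 read length. T122C and T149C are T-to-C differences from parent to copy, so a read of the parent placed on the copy would show there the same letters as an edit. Among the 50 members with a mean TPM of at least 5 over the 3 fractions, the number of T-to-C differences per member ranged from 0 to 14 with a median of 1, and their part in the EPKM values was not tested.

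The ends of 7 named members are shown for the encoded A run. Each has 20 bases up to the last base that aligned to the parent mRNA, then the next 20 bases, in which A is in capitals. On hg38 these lie at chr14:98972803-98972842 (minus strand) for RPL3P4, chr15:59769169-59769208 (plus) for RPS3AP6, chr6:149594563-149594602 (plus) for RPS18P9, chr12:118246983-118247022 (plus) for RPS2P5, chr3:61742405-61742444 (minus) for RPL10AP6, chr20:55075159-55075198 (plus) for RPL12P4 and chr5:56504572-56504611 (minus) for RPL26P19.
RPL3P4: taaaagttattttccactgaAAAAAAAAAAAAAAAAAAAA
RPS3AP6: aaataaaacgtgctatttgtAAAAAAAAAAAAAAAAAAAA
RPS18P9: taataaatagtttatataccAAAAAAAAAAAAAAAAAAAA
RPS2P5: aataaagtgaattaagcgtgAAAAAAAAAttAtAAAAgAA
RPL10AP6: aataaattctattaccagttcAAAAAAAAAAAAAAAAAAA
RPL12P4: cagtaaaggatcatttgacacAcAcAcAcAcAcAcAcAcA
RPL26P19: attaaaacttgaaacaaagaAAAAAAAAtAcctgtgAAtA

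In RPL3P4, RPS3AP6 and RPS18P9 all 20 bases after the copy were A, and RPL10AP6 had 19. RPS2P5 had 16, in a run broken by T and G, and RPL26P19 had 12. RPL12P4 had 10, in a CA repeat. Over all members, 91 copies reached the 3′ end of the parent mRNA, and the median number of A in the next 20 bases was 15, with a range of 2 to 20. At least 15 were A in 49 of the 91.

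Of the 220 members, 219 were found by identifier in GENCODE release 44 on hg38, with the biotype given in the table. RPSAP58 was not. The 219 lie on 23 chromosomes, 11 of them on X. Most, 203, are annotated as 1 exon, and 16 have several. Their exonic length had a median of 580 bases and ranged from 78 to 2551. Identity to the parent mRNA over the aligned bases had a median of 96.4% and ranged from 67.9% to 100%, and 60 members were at least 98% identical. An open reading frame of at least 90% of the parent protein's length was found in 57 members, and 8 encode the parent protein without a change.

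To see how far a read could be placed on a member, every window of 100 bases of its exons was searched in the whole genome and in the spliced transcripts of other genes. A window was called unique when it occurred nowhere else in the genome and in no spliced transcript of another gene. Spliced transcripts of the parent and of any host gene were included in the search. Unspliced host RNA was not, so a member in an intron of its host could be called unique. The 66 members inside a gene on the same strand had a median unique share of 100%. Unique windows made up a median of 94.9% per member over the 217 members with such windows, and 83 members were unique throughout. At the other end, 8 members had no unique window. In 3 members no share could be given, RPL41P1 with its 81 bases among them. By this measure 129 members were at least 90% unique, 58 were 50% to 90% unique and 30 were less than 50% unique. The 50 members with a mean TPM of at least 5 were closer to their parents, with a median identity of 98.7% and a median unique share of 72.9%.

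A TPM was given for 156 members and missing for 64, although all 220 have an EPKM. All 63 located members without a TPM lie inside another gene on the same strand, against 3 of the 156 with a TPM. Of the 156, 95 overlap no other annotated gene, 52 lie antisense to another gene and 6 partly overlap a gene on the same strand. The authors removed regions shared by several genes from the annotation before counting reads, and its part in the missing TPM values was not tested. The libraries were made with a stranded kit, and the sources used here do not say whether strand was used in counting. If it was not, reads of a member and of a gene antisense to it cannot be told apart. All 52 members antisense to a gene have a TPM.

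Editing of the members was patchy. The EPKM was above 0 for 68 members in the Input (30.9%), 119 in the PABPC RIP (54.1%) and 114 in the PABPN RIP (51.8%). Over all 18869 genes the shares were 54.9 percent in the Input, 63.1 percent in the PABPC RIP and 64.9 percent in the PABPN RIP, so the members lay below the table as a whole in each fraction. A total of 39 members were at 0 in all 3 fractions, 99 were above 0 in 1 fraction, 44 in 2 and 38 in all 3, which is 17.7%, 45%, 20% and 17.3% beside 11.1%, 26.6%, 30.5% and 31.8% of all genes. Ribosomal protein mRNAs were above 0 in 75 (94.9%), 73 (92.4%) and 68 (86.1%) of 79 cases in the Input, the PABPC RIP and the PABPN RIP. The other processed pseudogenes were above 0 in 165 (21.5%), 301 (39.2%) and 443 (57.8%) of 767 cases in the same order.

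The share above 0 moved with the RNA level. Among the 50 members with a mean TPM of at least 5, 34 were above 0 in the Input, 38 in the PABPC RIP and 36 in the PABPN RIP. Under the same filter 74.9%, 79.8% and 71.7% of all 11251 genes were above 0, against 68%, 76% and 72% of the members. Among the 56 with a mean TPM of 1 to 5 the numbers were 15, 31 and 26. Among the 50 below 1 they were 4, 26 and 19, and no EPKM of these exceeded 0.0898 in the Input, 0.266 in the PABPC RIP or 0.208 in the PABPN RIP. The part of RNA level in the count of members above 0 was not tested. By uniqueness, of the 129 members at least 90% unique, 16 were above 0 in the Input (12.4%), 57 in the PABPC RIP (44.2%) and 56 in the PABPN RIP (43.4%). Of the 58 that were 50% to 90% unique the numbers were 32 (55.2%), 40 (69.0%) and 38 (65.5%), and of the 30 less than 50% unique they were 18 (60%), 20 (66.7%) and 18 (60%). The most unique class had the lowest share in each fraction, and the order of the other classes differed between fractions. RNA level differed between these classes too. A mean TPM of at least 5 was reached by 15 of the 129, 22 of the 58 and 12 of the 30. The parts of uniqueness and RNA level in these shares were not told apart.

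**Figure D1:**
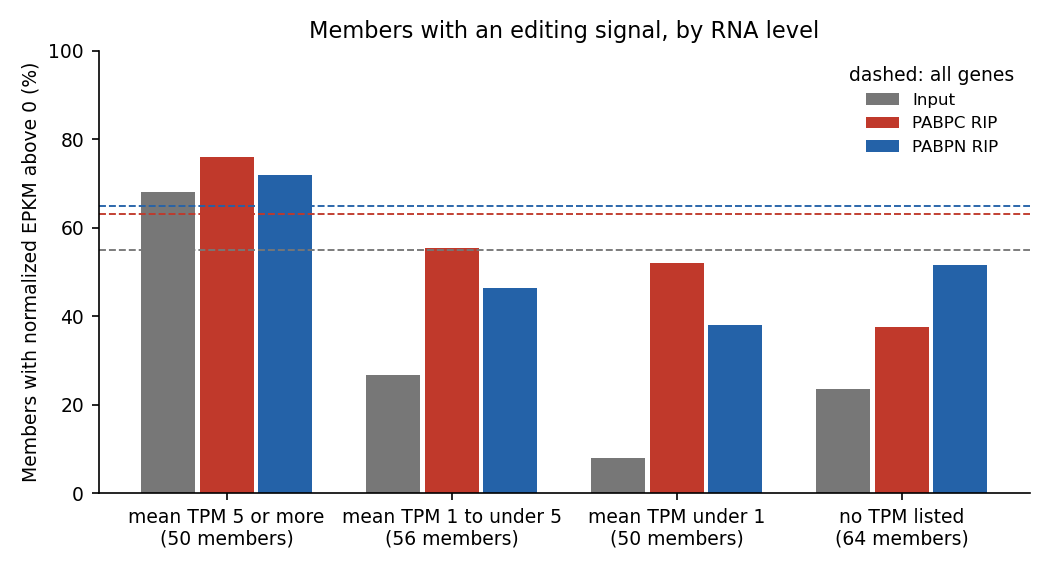
Bars give the share of members, in percent, with a normalized EPKM above 0 in the Input, the PABPC RIP and the PABPN RIP, for members grouped by mean TPM over the 3 fractions and for those with no TPM, and dashed lines give the same share over all genes of the table. The 50 members with a mean TPM of 5 or more (68%, 76% and 72%) lie above the dashed lines of their fractions, which take in genes of every RNA level (74.9%, 79.8% and 71.7% of genes with such a TPM), and the members with a mean TPM under 1 (8%, 52% and 38%) lie below them.

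Members inside a gene on the same strand differed from their hosts in both directions. Of the 66, 60 have a host that is also in the table, and the median host EPKM was 0.0169 in the Input, 0.0427 in the PABPC RIP and 0.0230 in the PABPN RIP. The member was higher than its host in 12, 19 and 23 cases, lower in 41, 36 and 30, and equal in 7, 5 and 7, in the same order of fractions. Where members overlap no other gene, 31 of 95 (32.6%) were above 0 in the Input. The numbers were 57 (60%) in the PABPC RIP and 46 (48.4%) in the PABPN RIP. Among those antisense to a gene, 20 (38.5%), 32 (61.5%) and 31 (59.6%) of 52 were above 0. Over all genes the shares were 54.9, 63.1 and 64.9 percent in the same order.

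A comparison of EPKM between the RIPs was limited to members whose TPM reached 5 in both RIPs, as a filter on poorly covered genes. This left 37 members of 29 parents. Their median TPM was 46.0 in the PABPC RIP and 15.2 in the PABPN RIP. The part of RNA level in the EPKM differences was not tested. Their EPKM was above 0 for 26 in the Input (70.3%), 29 in the PABPC RIP (78.4%) and 29 in the PABPN RIP (78.4%), beside 76.5%, 81.2% and 72.1% of the 10398 genes past the same filter. Of the 37, 18 were above 0 in all 3 fractions, 12 in 2, 6 in 1 and 1, RPL23AP7, in none, shares of 48.6%, 32.4%, 16.2% and 2.70% beside 48.5%, 35.1%, 13.9% and 2.46% of the genes past the filter. The median EPKM was 0.159 in the Input, 0.200 in the PABPC RIP and 0.163 in the PABPN RIP, and the means were 0.245, 0.233 and 0.235. In the PABPC RIP 20 members (54.1%) exceeded their value in the PABPN RIP, 16 (43.2%) were lower and 1 was equal, beside 55.5% higher and 37.7% lower among the genes past the filter, and the highest of the 3 values lay in the Input for 11, the PABPC RIP for 12 and the PABPN RIP for 13. The sign of the difference between the median EPKM of the RIPs, 0.0374 in favour of PABPC, turned to -0.00216 when means were used.

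With a threshold of 2-fold, 13 of the 37 members (35.1%) were higher in the PABPC RIP, where 35.9 percent of the 10398 genes tested were, and 11 (29.7%) were higher in the PABPN RIP, where 21.7 percent of genes were. Of the 60 parents, 36 (60%) passed 2-fold on the side of PABPC and 5 (8.33%) on that of PABPN. Of the 79 ribosomal protein mRNAs, 51 (64.6%) passed 2-fold on the side of PABPC and 7 (8.86%) on that of PABPN, with median EPKM of 0.440 in the Input, 0.437 in the PABPC RIP and 0.146 in the PABPN RIP. The 79 other processed pseudogenes past the same filter had medians of 0.0115, 0.0471 and 0.0766, with 20 (25.3%) past 2-fold on the side of PABPC and 29 (36.7%) on that of PABPN. The other protein-coding genes, 9528 in number, had medians of 0.0269, 0.0495 and 0.0330. Past this filter, the median EPKM of the members was above those of the other processed pseudogenes and the other protein-coding genes in each fraction, and below that of ribosomal protein mRNAs in the Input and the PABPC RIP. Without the filter, the medians over all 220 members were 0, 0.0126 and 0.0148, below the 0.0123, 0.0273 and 0.0197 of all 13394 other protein-coding genes.

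**Figure D2:**
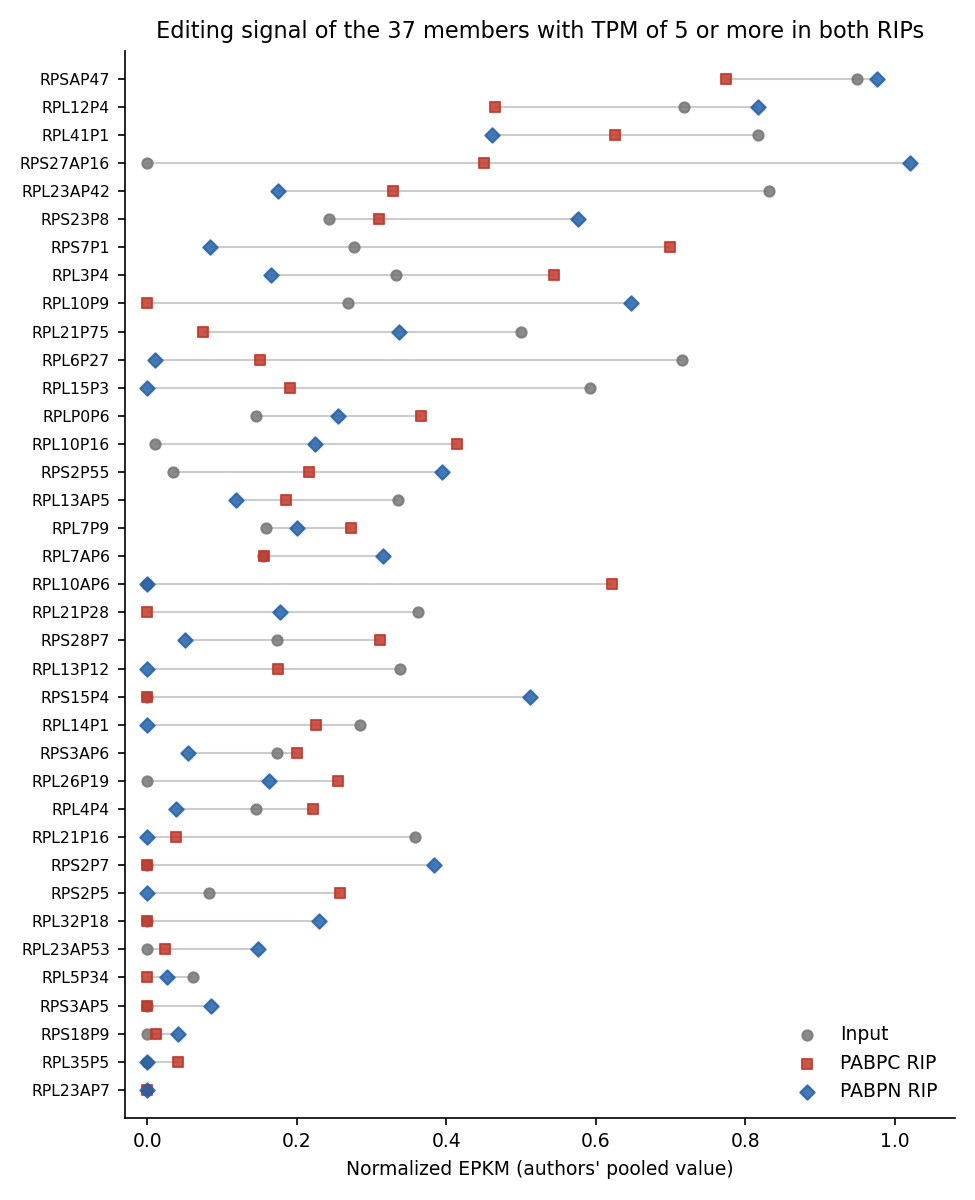
Normalized EPKM (x axis, the authors' pooled value) of each of the 37 members whose TPM reached 5 in both RIPs, with 1 symbol per fraction joined by a line, sorted by the mean. Values run from 0 to 1.02 and the order of the fractions differs from member to member.

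Among members whose TPM reached 5 in both RIPs, the side to which a member leaned differed with how much of it is unique. The 11 members less than 50% unique had a median EPKM of 0.359 in the Input, 0.192 in the PABPC RIP and 0.0554 in the PABPN RIP, and 6 of them passed 2-fold on the side of PABPC against 2 on that of PABPN. The 16 members that were 50% to 90% unique had medians of 0.151, 0.224 and 0.193, with 5 against 3. The 9 members at least 90% unique had medians of 0, 0.0242 and 0.148, with 2 against 6. Among these 6 were RPS27AP16, RPS18P9 and RPL23AP53, which are transcribed processed pseudogenes. The lean of this class depended on the filter. With a mean TPM of at least 5 its 15 members had medians of 0, 0.0242 and 0.0266, with 6 against 7. The counts were 35 against 24 over its 85 members with a TPM, and 42 against 42 over all 129. Of the genes with a TPM of 5 in both RIPs, 35.9% passed 2-fold for PABPC and 21.7% for PABPN. No such share was computed under the other filters, so those counts have no background beside them. The medians went down in the order Input, PABPC RIP, PABPN RIP in the least unique class and in the reverse order in the most unique class. With a TPM of 5 in both RIPs, medians of the most unique class lay below those of 2 other classes in the Input and the PABPC RIP. These were the other processed pseudogenes and the other protein-coding genes. Sources used here do not say how reads that map to several places were treated, and its part in these values was not tested.

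The highest mean EPKM over the 3 fractions among the 37 was that of RPSAP47, a copy of RPSA, which encodes a small-subunit protein also known as the laminin receptor. Its EPKM was 0.949 in the Input, 0.774 in the PABPC RIP and 0.977 in the PABPN RIP, at a TPM of 4.39, 22.1 and 6.39, and 94.2% of its windows were unique. The parent RPSA had an EPKM of 1.75, 1.65 and 0.959, so that member and parent were close in the PABPN RIP alone. RPL12P4, a copy of the gene for a protein at the base of the ribosomal stalk, had 0.717, 0.466 and 0.817. Its parent RPL12 had 2.24, 1.95 and 1.01. RPL41P1, a copy of the gene for the smallest ribosomal protein, had 0.817, 0.625 and 0.462 where RPL41 had 0.422, 0 and 0. The coding bases of RPL41P1 and RPL41 are the same, as printed above, and RPL41P1 is too short for a window of 100 bases.

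RPS27AP16, a transcribed copy of RPS27A, a gene that encodes a ribosomal protein joined to ubiquitin, had the highest EPKM of any member in the PABPN RIP. Its values were 0 in the Input, 0.450 in the PABPC RIP and 1.02 in the PABPN RIP, and 91.6% of its windows were unique. RPS27A itself had 0.840, 0.576 and 0.246, the opposite order. RPL23AP42, a copy of the gene for a protein near the exit of the ribosomal tunnel, had 0.831, 0.329 and 0.175 with 33.3% of its windows unique. RPS23P8, a copy of the gene for a protein at the decoding centre, had 0.244, 0.310 and 0.576. RPS23 had 0.287, 0 and 0.165, so in the RIPs the copy was the higher of the pair.

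The largest gains from the PABPN RIP to the PABPC RIP were those of RPL10AP6, RPS7P1, RPL3P4 and RPS28P7. RPL10AP6, which is unique throughout, had an EPKM of 0 in the Input, 0.621 in the PABPC RIP and 0 in the PABPN RIP. RPS7P1, whose parent encodes a protein of the small subunit, had 0.277, 0.699 and 0.0839, beside 0.797, 0.816 and 0.235 for RPS7. RPL3P4, a copy of the gene for a protein next to the peptidyl transferase centre, had 0.333, 0.545 and 0.165, beside 0.281, 0.344 and 0 for RPL3. RPS28P7, which matches RPS28 mRNA without a difference over its aligned bases, had 0.174, 0.311 and 0.0507. RPL10AP6 was the 1 of these 4 with no editing signal in the Input or the PABPN RIP.

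At the other end, RPL10P9, RPS27AP16, RPS15P4 and RPS2P7 had the largest excess in the PABPN RIP over the PABPC RIP. RPL10P9, a copy of the gene for a protein that joins the large subunit late in its assembly, had an EPKM of 0.269 in the Input, 0 in the PABPC RIP and 0.647 in the PABPN RIP. Another copy of the same gene, RPL10P16, leaned the other way with 0.0105, 0.414 and 0.224, and RPL10 had 0.441, 0.438 and 0.264. RPS15P4 had 0 in the Input, 0 in the PABPC RIP and 0.512 in the PABPN RIP. RPS2P7 likewise had 0, 0 and 0.384. These 4 were chosen for that excess, and RPS27AP16 was the 1 among them above 0 in the PABPC RIP.

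Against its own parent, a member was more often lower in EPKM, a value that is not divided by the RNA level. The mean TPM of the 37 members compared was a median of 1.88% of the parent's. The part of RNA level in this comparison was not tested. Of the 37 members, 12 were higher than the parent in the Input, 9 in the PABPC RIP and 14 in the PABPN RIP, whereas 25, 27 and 22 were lower and 0, 1 and 1 equal. Weighted by members, the median EPKM of the parents was 0.422, 0.400 and 0.235, and over all 60 parents it was 0.420, 0.433 and 0.156. Of the 9 members at least 90% unique, 0 were higher than the parent in the Input, 1 in the PABPC RIP and 3 in the PABPN RIP.

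RNA levels of the members were low next to those of the parents, with some exceptions. Over the 50 members with a mean TPM of at least 5, which have 33 parents, the member's mean TPM was a median of 1.58% of the parent's, with a range of 0.0352% to 38.8%. On the log2 scale the ratio had a median of -5.95 and ran from -11.34 to -1.36. Across these members the share of the parent's TPM was lower where more of the member was unique (Spearman's rho -0.47 over 49 members) and higher where more of its windows occur in the parent mRNA (0.54 over 49). These are correlations across genes within pooled values, which share libraries and in part share parents.

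**Figure D3:**
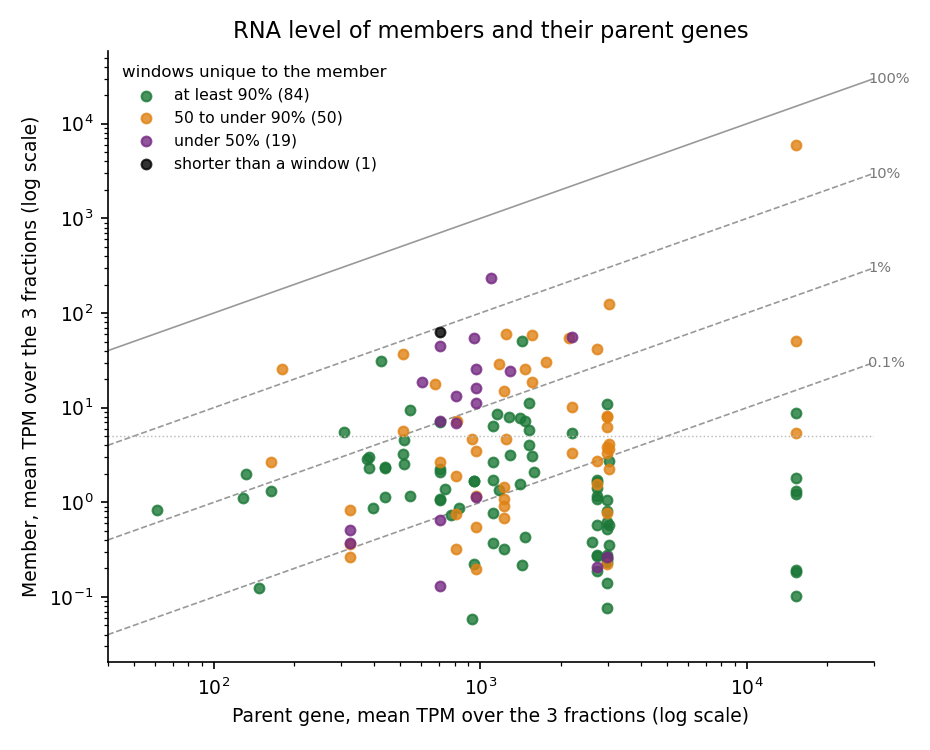
Mean TPM over the 3 fractions of each member with a TPM above 0 against that of its parent gene, on log axes, coloured by the share of unique windows, with lines at set percentages of the parent's level and a dotted line at a TPM of 5. No member reaches the line of equality, and the member nearest to it is RPS2P5 at 38.8% of RPS2.

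RPS2P5 (chr12:118246084-118246962, antisense to TAOK3) stood far above every other member. Its TPM was 3191 in the Input, 10262 in the PABPC RIP and 4358 in the PABPN RIP, beside 8171, 27182 and 10493 for RPS2, so its mean was 38.8% of the parent's. Its EPKM was 0.0828, 0.258 and 0, whereas RPS2 had 0.126, 0.101 and 0.447. It is 98.7% identical to RPS2 mRNA, 59.9% of its windows are unique and 30.4% occur in the RPS2 mRNA. RPS2 had by far the highest mean TPM of the parents at 15282, with the next at 3036, and RPS2 is the gene the RPS2-STAMP construct encodes. Which samples entered the averages is not given in the sources used here, and the part of the construct in the TPM of RPS2 and RPS2P5 was not tested. The other RPS2 members were far lower, RPS2P55 on X with the next mean TPM of 50.1.

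RPS28P7 had the next highest level, with a TPM of 145 in the Input, 403 in the PABPC RIP and 149 in the PABPN RIP, or 21.3% of RPS28. No window of this member is unique. RPL13AP5, whose parent encodes a protein with a further role in interferon-induced translational silencing, had 66.7, 239 and 64.1. RPL41P1 had 40.1, 111 and 40.5, which was 9.07% of RPL41. Below these came RPL13P12 with 27.0, 111 and 42.4, RPL10P16 with 33.7, 109 and 31.6, RPS3AP6 with 24.1, 108 and 36.8, and RPL15P3 with 33.0, 104 and 28.3. All 8 had their highest TPM in the PABPC RIP. They were picked on mean TPM, which a high value in that RIP raises, and these TPM are not centred. Over the 11251 genes with a mean TPM of at least 5, the median log2 ratio of PABPC RIP to Input was 0.92. That of PABPC RIP to PABPN RIP was -0.33. The EPKM of the 8 members showed no such common order. RPL15P3 had 0.592 in the Input, 0.192 in the PABPC RIP and 0 in the PABPN RIP, RPL13P12 had 0.339, 0.176 and 0, RPL13AP5 had 0.336, 0.186 and 0.119, and RPS3AP6 had 0.174, 0.200 and 0.0554.

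To compare association with the 2 proteins, log2 TPM ratios were taken with 0.5 added to each TPM, over the 11251 genes with a mean TPM of at least 5. They were centred on the median of those genes, which was 1.20 for PABPN RIP over Input, 0.92 for PABPC RIP over Input and -0.33 for PABPC RIP over PABPN RIP before centring. A ratio past 0.5 on either side counted as a difference. Members lay on the side of PABPC. In the PABPC RIP over the Input, 44 of the 50 members (88%) were above the threshold, against 10.8 percent of all genes, and 0 were below it, against 19.8 percent. In the PABPN RIP over the Input, 1 member (2%) was above, against 26.2 percent of genes, and 41 (82%) were below, against 23.5 percent. In the PABPC RIP over the PABPN RIP, 47 members (94%) were above, against 32.1 percent, and 1 member (2%), RPS18P9, was below, against 33.2 percent. A mean TPM of 5 can be reached through a high value in the PABPC RIP alone, and 13 of the 50 members did not reach 5 in both RIPs. Over the 37 that did, centred on the 10398 genes past that filter, 30 members (81.1%) were above the threshold in the PABPC RIP over the Input, against 8.68 percent of those genes. In the PABPN RIP over the Input, 27 (73.0%) were below it, against 21.7 percent. In the PABPC RIP over the PABPN RIP, 34 (91.9%) were above it, against 30.3 percent, with a median of 1.77.

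The median of the centred ratio over the 50 members was 0.85 for PABPC RIP over Input, -0.99 for PABPN RIP over Input and 1.95 for PABPC RIP over PABPN RIP. Ribosomal protein mRNAs had medians of 0.71, -1.28 and 2.05, and all 79 of them were above the threshold in the PABPC RIP over the PABPN RIP. The 113 other processed pseudogenes with a mean TPM of at least 5 had medians of 0.43, -0.39 and 1.07, with 63 above and 38 below the threshold in the PABPC RIP over the PABPN RIP. Other protein-coding genes had medians of -0.01, -0.04 and 0.05. The members were thus near the ribosomal protein mRNAs and above the other processed pseudogenes in their PABPC to PABPN ratio. Without centring, 14 members (28%) were above and 1 (2%) below the threshold in the PABPN RIP over the Input, so that direction holds only relative to the median gene.

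**Figure D4:**
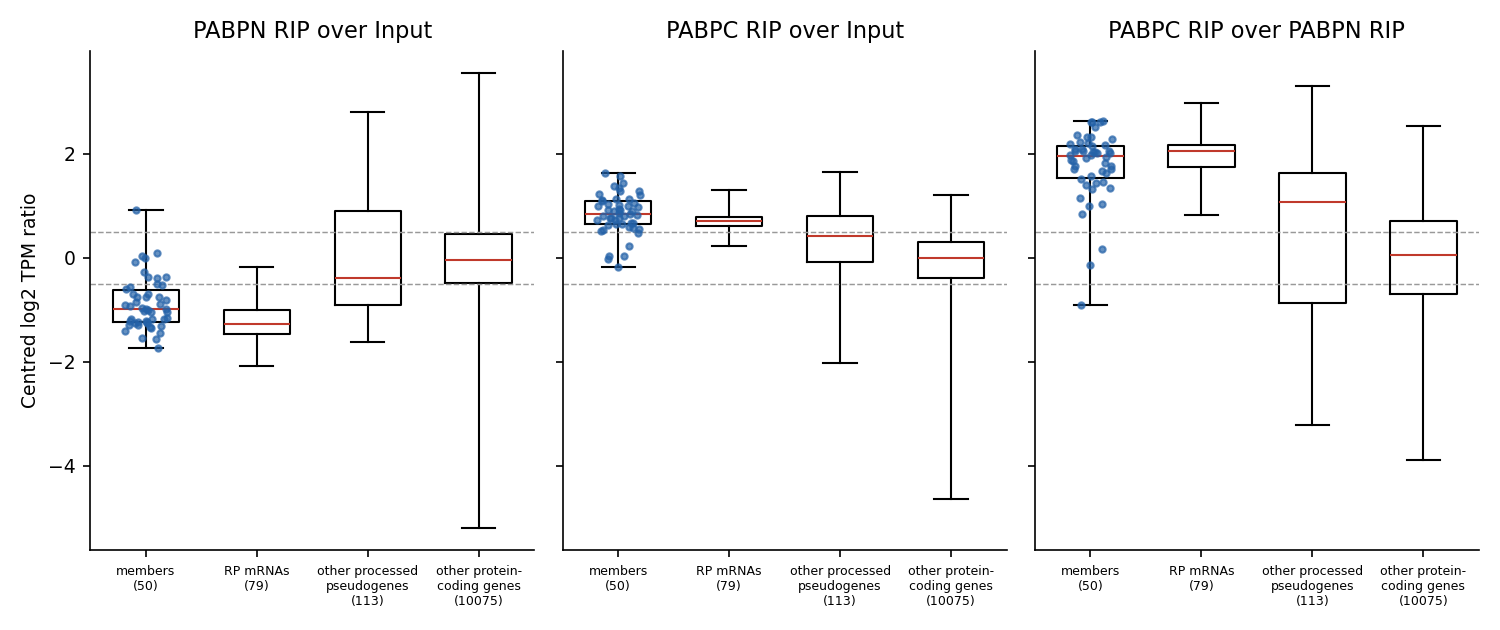
Centred log2 TPM ratio (y axis) of the PABPN RIP over the Input, the PABPC RIP over the Input and the PABPC RIP over the PABPN RIP for genes with a mean TPM of at least 5, by class of gene, with boxes for quartiles and median, whiskers for the full range, points for the 50 members and dashed lines at 0.5 and -0.5. In the PABPC RIP over the PABPN RIP the members (median 1.95) lie with the ribosomal protein mRNAs (median 2.05), and the other processed pseudogenes have a median of 1.07.

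The middle of the members was narrow, with quartiles of 1.53 and 2.16, and the range ran from -0.90 to 2.62. RPS23P8, RPL26P19 and RPL37AP1 were highest at 2.62 each, followed by RPSAP12 at 2.61. RPS23P8 had a TPM of 10.3 in the Input, 36.1 in the PABPC RIP and 6.96 in the PABPN RIP. RPL26P19, a copy of the gene for a large-subunit protein that also binds p53 mRNA, had 15.3, 59.2 and 11.7. RPL37AP1 had 1.84, 12.6 and 2.18, and RPSAP12 had 2.52, 13.9 and 2.47, so both passed the filter on mean TPM only through the PABPC RIP, the fraction that makes their ratio high.

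The lowest ratios were those of RPS18P9 at -0.90, RPL23AP53 at -0.13, RPL23AP7 at 0.17 and RPL21P75 at 0.84. RPS18P9 had a TPM of 2.92 in the Input, 5.86 in the PABPC RIP and 14.4 in the PABPN RIP. RPL23AP53 had 4.09, 7.15 and 10.0. RPL23AP7 had 3.63, 8.57 and 9.62. RPS18P9, RPL23AP53 and RPL23AP7 are transcribed processed pseudogenes annotated with 3 exons each, and only 29.2%, 70.5% and 25% of their exonic length aligned to the parent mRNA. Their annotated exons therefore hold sequence that did not align to the parent mRNA, and no window of theirs occurs in it. RPS18P9 partly overlaps another gene on the same strand, RPL23AP53 lies antisense to another gene, and RPL23AP7 overlaps no other gene. Which sequence their RNA holds was not tested. The parts of that sequence and of the overlaps in the ratios were not tested either. RPL23AP7 was less than 50% unique. Their EPKM was 0, 0.0117 and 0.0419 for RPS18P9, 0, 0.0242 and 0.148 for RPL23AP53, and 0 throughout for RPL23AP7.

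The other transcribed members with a mean TPM of at least 5 went with the rest. RPL6P27 had a ratio of 2.03 and a TPM of 11.3, 34.7 and 10.3, and RPS27AP16 had a ratio of 2.29 and a TPM of 14.3, 64 and 16. RPL6P27 had an EPKM of 0.715 in the Input, 0.151 in the PABPC RIP and 0.0109 in the PABPN RIP. RPL21P75, with a TPM of 11.1, 22 and 15.3 and an EPKM of 0.50, 0.0742 and 0.337, was low together with its parent RPL21, whose ratio was 1.10.

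Member and parent had like ratios in most pairs. The member's centred PABPC RIP over PABPN RIP ratio minus the parent's had a median of 0.04, and 43 of 50 pairs were within 0.5 of each other. Below the parent lay RPS18P9 by -3.49, RPL23AP53 by -1.41 and RPL23AP7 by -1.11. Above it lay RPL24P4 by 0.57, RPL14P1 by 0.64, RPSAP12 by 0.64 and RPL23AP42 by 0.74, of which RPL24P4 and RPSAP12 did not reach a TPM of 5 in both RIPs. Over the 37 members that did, the median difference was 0.02 and 32 pairs were within 0.5. Across the 50 pairs Spearman's rho between member and parent was 0.70, and it was 0.79 over the 45 members annotated as processed and not transcribed. The pairs share libraries, parents and, for members of low uniqueness, part of their sequence. The ratios of the 60 parents themselves lay close together, with quartiles of 1.66 and 2.16. A member can therefore be within 0.5 of parents other than its own, and how often was not computed.

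**Figure D5:**
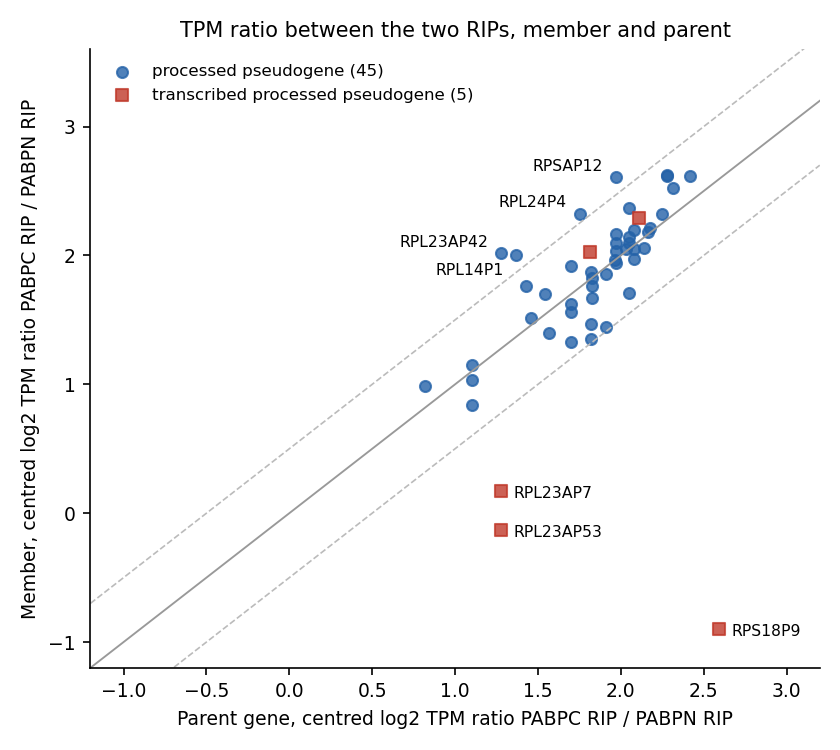
Centred log2 TPM ratio of the PABPC RIP over the PABPN RIP for each of 50 members against its parent gene, with the line of equality, dashed lines 0.5 to either side, and squares for transcribed processed pseudogenes. Of the 50 points 43 lie within the dashed lines, and RPS18P9, RPL23AP53 and RPL23AP7 differ from their parents by -3.49, -1.41 and -1.11.

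The number of copies differed widely between parents. RPSA had the most with 27 members, 19 with a TPM and 4 with a mean TPM of at least 5, followed by RPL23A with 12, RPS2 with 11, RPS3A with 10 and RPL21 with 9, which is tied with RPS4X. Of the 27 RPSA copies, 10 had an EPKM above 0 in the Input, 17 in the PABPC RIP and 16 in the PABPN RIP. Beside 54.9, 63.1 and 64.9 percent of all genes in the same order, these were 37%, 63% and 59.3% of the RPSA copies. The 4 most abundant were RPSAP47 (described above), RPSAP19 with an EPKM of 0.766 in the Input, 0.694 in the PABPC RIP and 0.534 in the PABPN RIP, RPSAP15 with 0.365, 0.527 and 0.136, and RPSAP12 with 0.239, 0.252 and 0.297. Their values were all below those of RPSA but for RPSAP47 in the PABPN RIP. Together the RPSA copies had 1.53% of the RPSA level in summed mean TPM, although RPSA itself had a mean TPM of 2993.

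For the other 4 parents the copies' part varied. The summed mean TPM of its copies was 9.50% of the parent for RPL23A, 39.3% for RPS2, nearly all from RPS2P5, 3.41% for RPS3A and 6.12% for RPL21. Among the RPL21 copies, RPL21P16 had an EPKM of 0.359 in the Input, 0.0388 in the PABPC RIP and 0 in the PABPN RIP. No window of RPL21P16 is unique. RPL21P28 had 0.362, 0 and 0.177, and RPL21 had 0.285, 0.344 and 0.302, so copies of 1 parent did not share an order of the fractions. RPL32P18, with all its windows unique, had an EPKM of 0 in the Input, 0 in the PABPC RIP and 0.229 in the PABPN RIP, while RPL32 had 0.00466, 0 and 0.

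Of the members without a TPM, RPL12P16, inside the gene NBEAL1 on the same strand, had the highest EPKM, with 0.991 in the Input, 0.243 in the PABPC RIP and 0.335 in the PABPN RIP. No window of it is unique. RPSAP58 had 0.626, 0.225 and 0.238, RPL10P6, inside SNHG31, had 0.368, 0.550 and 0, and RPS2P46 had 0.561, 0.410 and 0.311. RPL5P4, inside ZMYM4, had 0, 0 and 0.489. For these 5 the RNA level behind the EPKM is unknown.

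High EPKM values also occurred at low RNA levels. RPSAP54 had an EPKM of 0.404 in the Input, 0.751 in the PABPC RIP and 0.338 in the PABPN RIP at a mean TPM of 3.81. RPL3P2 had 0, 0.661 and 0.201 at a mean TPM of 3.15, and 97.7% of its windows are unique. RPS15AP12, unique throughout, had 0.0923, 0.675 and 0.116 at a mean TPM of 1.12. These 3 members, whose parents encode proteins of the small subunit (RPSA, RPS15A) and the large subunit (RPL3), were below the filter on TPM and stand outside the comparison of the RIPs above.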

How the data were processed

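RNA from 17 samples was sequenced with 100-base paired reads after ribosomal RNA depletion. Reads were aligned by the authors with STAR to the hg38 assembly and counted with featureCounts 2.0.2 (minimum overlap 20) on an annotation built from GENCODE 34 without readthrough transcripts or stretches shared between genes. The deposited normalized EPKM is a signal of edits with a confidence of at least 0.5, from which the authors subtracted the control. The deposited TPM, a sum of exonic and intronic TPM averaged per fraction, is repeated for each condition in the table and was read as a score. How replicates were combined, and how multi-mapping reads and strand were handled, is not given in the sources used here. Samples were grouped by the labels, no column belonged to another sample (0), and the tests set for values per sample could not be run because values are pooled. The study's text states the depth of the libraries. The reads behind each value are unknown, and the precision cannot be stated.

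Computed here were counts, medians, 2-fold calls with 0.01 added to each EPKM, and centred log2 ratios with 0.5 added to each TPM. Members were aligned to the parent's canonical transcript in GENCODE 44 (match 2, mismatch -3, gap opening -5, gap extension -2), and windows were counted in the genome on both strands and in spliced transcripts of other genes on the sense strand. The members, lists and rules were chosen with earlier results of these data known. The members named were the 8 with the highest mean TPM, the 6 with the highest mean EPKM and the 4 with the largest EPKM gain and the 4 with the largest loss among those whose TPM reached 5 in both RIPs, the 4 highest and 4 lowest ratios, the 5 highest without a TPM, and transcribed members with a mean TPM of at least 5, with their parents and the 5 parents with most members. RPL21P16, RPL21P28, RPL32P18, RPS2P55, RPSAP19, RPSAP15, RPL24P4, RPL14P1, RPSAP54, RPL3P2 and RPS15AP12 were named after their values were seen. The computation of the centred ratios was tested on simulated data, which says nothing about replicate error. The sequence of 1 further coding stretch is not reported here. Alternatives changed the filter, summary, pseudocount, centring, threshold and members. Biopython 1.88, pysam 0.24.0, matplotlib 3.10.9, SciPy 1.17.1, pandas 2.3.3 and NumPy 2.4.6 were used under Python 3.11.15.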

Additional observations from a re-analysis of the deposited data

How the results depend on the processing

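No paired analysis was possible because each value is pooled over replicates, and for the same reason leaving out each replicate and a fit with the replicate number were not run. Of the values under alternatives, 78 stayed, 25 moved and 3 reversed, and the cause was not tested. The share of members with an EPKM above 0 was higher under filters on TPM. In the Input it was 57.1% where both RIPs had a TPM of 1 or more and 70.3% where both had 5 or more. In the PABPC RIP it was 60.9% among members with a TPM and 67.9% and 78.4% under the same filters, and in the PABPN RIP it was 66.7% and 78.4% under them. The difference of the median EPKM between the RIPs (PABPC minus PABPN) was 0.0878 with the filter at 1 and 0.0642 with a mean TPM of at least 5, and it reversed to -0.00223 over every listed member, to -0.00216 with means and to -0.124 in members at least 90% unique. Of these 9 members, 66.7% were past 2-fold on the side of PABPN, against 21.7 percent of genes, and 22.2% on that of PABPC, against 35.9 percent. In the same class 7 leaned to PABPN and 6 to PABPC among the 15 with a mean TPM of at least 5. Among the 85 with a TPM the numbers were 24 and 35. The share of all genes past 2-fold was not computed under these filters. Restriction to members at least 90% unique and leaving out RPS2 members were chosen after seeing the data. For PABPN RIP over Input, 28% of members were above and 2% below the threshold without centring, and 0% and 48% with a threshold of 1. For PABPC RIP over Input, 100% were above without centring and 34% with a threshold of 1, and 0% were below for PABPC RIP over PABPN RIP with a threshold of 1. The share of members higher than the parent was 6.82% in the Input, 8.64% in the PABPC RIP and 12.3% in the PABPN RIP over every listed member, and 0% and 11.1% in the Input and the PABPC RIP in members at least 90% unique. The median log2 ratio of member to parent TPM was -8.59 over every member with a TPM, -5.28 with 1 member per parent and -7.23 in members at least 90% unique. Without the RPS2 members, the values computed (shares above 0, EPKM differences and TPM ratios) kept their direction. Pooled values without counts limit all of this: neither the error between replicates nor the number of edits behind an EPKM is known.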
